A study of Caenorhabditis elegans with 12 samples.

Results

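The nuclear hormone receptor family of Caenorhabditis elegans was examined in worms raised on polyunsaturated fatty acids, leaving out the receptors nhr-49, nhr-80, nhr-13, nhr-66, nhr-64 and nhr-25. The members were all other genes whose symbol starts with nhr-, together with daf-12. They numbered 266 of 25478 genes with a probe set of 1 symbol, and each member had exactly 1 probe set. Of the 266, 256 are annotated as protein-coding and 10 as pseudogenes. A further 12 receptor symbols of the reference gene table had no probe set with a single gene entry and were not analysed here. Among them were nhr-62, nhr-73, nhr-113 and nhr-245, whose probe sets list several gene entries. The probe set of nhr-62 names no other gene, but lists several gene identifiers and was left out for that.

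N2 is the wild-type laboratory strain, and its larvae were plated soon after hatching and collected at L4, the last larval stage. They were kept at 20 °C with Escherichia coli OP50 as food on nematode growth medium (NGM). One fatty acid was mixed into the medium of each of 3 groups, at 1000 µM. LNA stands for linoleic acid. GLA stands for gamma-linolenic acid, and DGLA for its dihomo form. The control medium had no added fatty acid and held the ethanol vehicle alone, at 1% by volume, the quantity that came with the acids. Each group had 3 biological replicates and 1 Affymetrix array per replicate, 12 arrays in all, of RNA from whole larvae. Values are RMA signals on the log2 scale, so a difference of 1 is a 2-fold change in signal. In RNA of whole worms, fewer cells of a type and less RNA per cell cannot be told apart.

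Nuclear hormone receptors are transcription factors with a zinc-finger domain that binds DNA and, in most, a second domain that can hold a small fat-soluble ligand such as a sterol or a fatty acid. The nematode family is far larger than that of insects or mammals, mostly through the spread of genes related to the mammalian receptor HNF4, and most of its members have no known ligand. Those with a known role act in the choice between reproductive growth and dauer arrest, in molting, in the use of fat and of propionate, and in the response to toxins and pathogens. In mammals the receptors of the PPAR group bind polyunsaturated fatty acids.

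Nearly all receptors, like nearly all genes, had a signal within 2-fold of control on every diet, and 2 receptors passed the test against control. The receptor gene nhr-11 rose with DGLA and nhr-257 rose with GLA, and 0 receptors passed with LNA. The call required limma's moderated test to give an adjusted p under 0.05 (Benjamini-Hochberg) among all 29317 probe sets. The test sets each difference against the spread between replicates, pooled over all 4 groups and moderated by limma. The spread among the LNA arrays therefore enters the tests of GLA and DGLA too. The share of all probe sets called was 0.058% with LNA, 0.229% with GLA and 0.498% with DGLA, so that 0, 1 and 1 calls among 266 receptors lay near the background. By limma's F test for any difference among the 4 groups 1 receptor was called, again nhr-11 (adjusted p = 0.0345), against 0.467% of all probe sets.

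The receptors' changes lay close to those of all genes. Their median log2 change was 0.017 with LNA, -0.017 with GLA and 0.008 with DGLA, beside 0.024, -0.002 and -0.002 for all genes. The quartiles of the receptors lay at -0.11 and 0.14 with LNA, at -0.13 and 0.10 with GLA, and at -0.10 and 0.11 with DGLA. With LNA 11 receptors were higher and 13 lower at an unadjusted p under 0.05, where all genes gave 5.17% higher and 4.17% lower, or 4.14% and 4.89% for the receptors. With GLA 7 were higher and 12 lower, beside 2.71% and 2.76% of all genes, and with DGLA 10 were higher and 6 lower, beside 2.98% and 2.70%. These shares are close to the background in each direction, except that 12 of 266 receptors is 4.51%, above the 2.76% of all genes lower with GLA, a difference that was not tested.

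**Figure D1:**
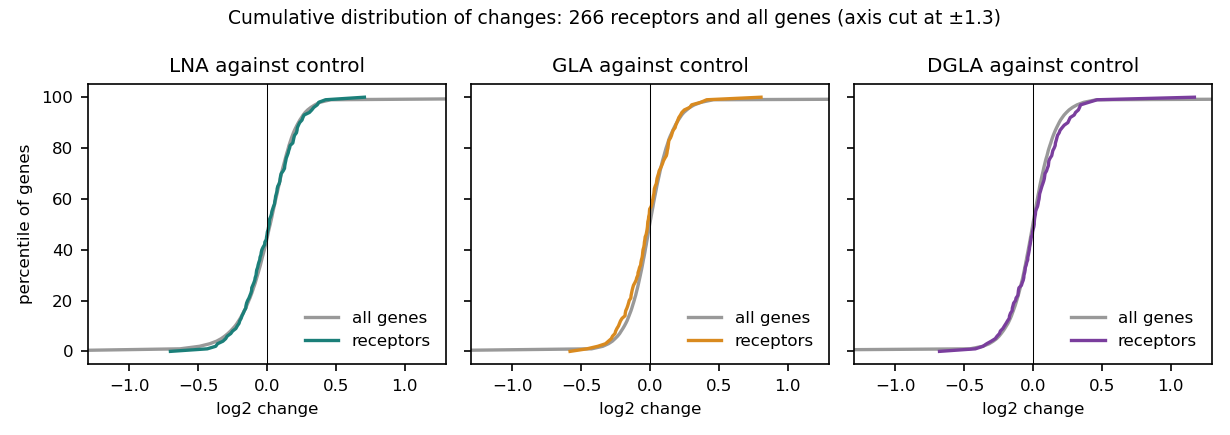
Cumulative distribution of log2 changes for the 266 receptors (coloured) and all 25478 genes (grey), with the percentile of genes on the vertical axis and 1 panel per fatty acid. The curves run together around medians of 0.017, -0.017 and 0.008, and the single receptor at the far right with DGLA is nhr-11 at 1.17.

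The intervals of most receptors also set limits on how much they could have changed. The 95% interval lay inside a 2-fold change in either direction for 264 of 266 receptors with LNA, 265 with GLA and 264 with DGLA. These are 99.2%, 99.6% and 99.2%, beside 97.5%, 98.3% and 98.3% of all genes. The interval lay inside a 1.5-fold change for 211, 222 and 215. Those are 79.3%, 83.5% and 80.8%, beside 80.2%, 83.9% and 83.2% of all genes, so such limits are not particular to the receptors. The exceptions at 2-fold were nhr-11 with each of the 3 acids, nhr-88 with LNA and nhr-107 with DGLA. The signal of 71 of the 266 lay at or under 2.96, the median lower quartile of the arrays, which was 26.7% of receptors and 24.7% of all genes. For those dim receptors a small change says little about the transcript.

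The receptor nhr-11 (ZC410.1), for which no role is stated here, was the member that moved most. Its signal was 4.77, 5.22 and 4.77 on the control arrays, 5.58, 5.96 and 5.34 with LNA, 5.70, 5.70 and 5.77 with GLA, and 6.28, 6.04 and 5.95 with DGLA. All 9 arrays of fatty acid lay above all 3 control arrays. With DGLA it rose 2.25-fold. Its mean log2 signal went from 4.92 ± 0.261 in control (SD, n = 3) to 6.09 ± 0.171, a log2 change of 1.17 (SE 0.166, limma adjusted p = 0.00654).

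With GLA the log2 change of nhr-11 was 0.81 (95% interval 0.44 to 1.17, limma adjusted p = 0.133), and with LNA it was 0.71 (0.34 to 1.07, adjusted p = 0.318), and neither passed. The 3 comparisons share the same control arrays, so the likeness of these values is not independent evidence. It was the only receptor of the 266 whose arrays lay apart from control in the same direction with every acid, as was so for 224 genes higher and 127 lower among all 25478. Between the acids themselves nhr-11 did not pass. DGLA against LNA gave 0.46 (0.10 to 0.83, adjusted p = 0.332), DGLA against GLA gave 0.37 (0.00 to 0.73, adjusted p = 0.966), and GLA against LNA gave 0.10 (-0.27 to 0.46, adjusted p = 0.838), which changed sign to -0.05 without LNA 3.

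The DGLA call of nhr-11 held whichever of the 12 arrays was left out, with an adjusted p of 0.00336 to 0.0423 and a log2 change of 1.08 to 1.32. Fitted on the 6 arrays of the comparison alone it narrowly missed, at an adjusted p of 0.0509. Its call in the F test was less stable, and ended without control 1 (0.163), without control 3 (0.156), without any 1 GLA array (0.0746 to 0.0803) and without any 1 DGLA array (0.0771 to 0.105).

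The receptor nhr-257 (C17A2.1) was the single call with GLA, at a very low signal. It measured 1.74, 1.69 and 1.98 on the control arrays, 1.86, 1.91 and 2.13 with LNA, 2.33, 2.42 and 2.61 with GLA, and 2.0, 2.03 and 2.05 with DGLA. The 3 GLA arrays were above the other 9, and every one of the 12 values lay under the dim limit of 2.96, so no fold is given. The log2 change with GLA was 0.65 (SE 0.112, limma adjusted p = 0.0423), from a mean of 1.81 ± 0.157 to 2.46 ± 0.141 (SD, n = 3).

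The call of nhr-257 was fragile. It held in 2 of 12 fits with 1 array left out, without control 3 and without LNA 3, and ended in the other 10 (adjusted p up to 0.243). It was 0.221 on the 6 arrays alone. Without dim probe sets nhr-257 was not tested. The differences between acids did not pass, with GLA against LNA at 0.49 (95% interval 0.25 to 0.73, adjusted p = 0.294) and DGLA against GLA at -0.43 (-0.67 to -0.18, adjusted p = 0.564). With LNA the log2 change against control was 0.16 (adjusted p = 0.657) and with DGLA it was 0.22 (adjusted p = 0.919).

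**Figure D2:**
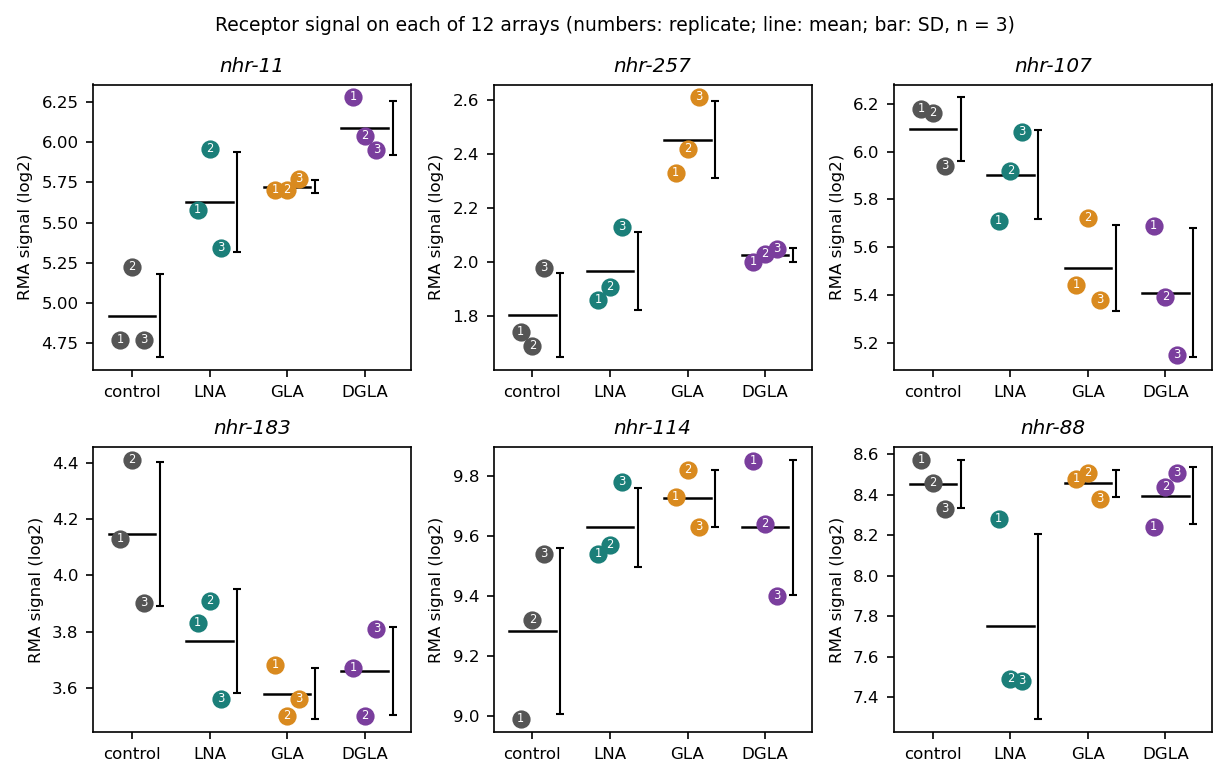
RMA signal (log2, vertical axis, its range differing between panels) of 6 receptors on each array, with arrays numbered by replicate, a line at the group mean and a bar of 1 SD (n = 3). The DGLA arrays of nhr-11 lie between 5.95 and 6.28 and its control arrays between 4.77 and 5.22, and nhr-88 is low on LNA 2 and LNA 3 alone.

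Arrays that did not overlap between groups were about as common among receptors as among all genes. With LNA 17 receptors lay wholly above control and 12 wholly below (6.39% and 4.51%), where all genes gave 8.24% and 3.94%. With GLA the numbers were 16 and 14 (6.02% and 5.26%, beside 5.70% and 6.35%), and with DGLA 21 and 12 (7.89% and 4.51%, beside 5.57% and 5.19%). The receptors described next lead that ranking by the moderated test statistic, and apart from nhr-11 and nhr-257 none of them passed.

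The receptor nhr-107 (C33G8.11) came nearest to a call on the low side. Its signal was 6.18, 6.16 and 5.94 in control, 5.71, 5.92 and 6.08 with LNA, 5.44, 5.72 and 5.38 with GLA, and 5.69, 5.39 and 5.15 with DGLA. The GLA and DGLA arrays all lay below the control arrays, while the LNA arrays overlapped them. The log2 difference from control was -0.68 with DGLA (limma adjusted p = 0.117), -0.58 with GLA (adjusted p = 0.386) and -0.19 with LNA (adjusted p = 0.708). It passed with DGLA when arrays were weighted (adjusted p = 0.0321).

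A like pattern was measured in nhr-183 (F41B5.10). It read 4.13, 4.41 and 3.90 in control, 3.83, 3.91 and 3.56 with LNA, 3.68, 3.50 and 3.56 with GLA, and 3.67, 3.50 and 3.81 with DGLA. The arrays of GLA and of DGLA lay below those of control, and the differences were -0.57 (limma adjusted p = 0.324) and -0.48 (adjusted p = 0.399).

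Further receptors led a comparison with GLA or DGLA and did not pass, and nhr-262 and nhr-230 are also among the leaders with LNA. With GLA these were nhr-157 (0.38, limma adjusted p = 0.39), which was dim at 1.89 to 2.53, nhr-148 (0.30) and nhr-52 (0.32), also dim, and on the low side nhr-58 (-0.32), nhr-18 (-0.40) and nhr-262 (-0.32). With DGLA they were nhr-78 (0.34), nhr-35 (0.31), nhr-139 (0.51) and nhr-230 (0.27) on the high side and nhr-124 (-0.42), nhr-253 (-0.36), nhr-231 (-0.36) and nhr-201 (-0.24) on the low side, with adjusted p from 0.426 to 0.947. No role is stated here for these genes.

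With LNA the foremost receptor below control was nhr-88 (K08A2.5). Its signal was 8.28 on LNA 1 but 7.49 and 7.48 on LNA 2 and LNA 3, beside 8.57, 8.46 and 8.33 in control, 8.48, 8.51 and 8.38 with GLA, and 8.24, 8.44 and 8.51 with DGLA. LNA 1 lay just below the control arrays and within the range of the DGLA arrays, and the other 2 LNA arrays were far below all others. The log2 difference from control was -0.70 (SE 0.183, limma adjusted p = 0.35). It was -0.96 without LNA 1 (adjusted p = 0.00128) and -0.17 without LNA 2 and LNA 3 (adjusted p = 0.867).

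LNA 2 and LNA 3 stood apart from the other 10 arrays over the whole array as well. They scored 42.0 and 35.7 on the first principal component of all probe sets, which held 23.1% of the variance, where the other arrays scored from -18.0 to 3.64. Both lay above all other arrays in 18 receptors and below them in 14, or 6.77% and 5.26%, beside 8.23% and 6.01% of all genes. Among the 18 were nhr-68, nhr-69, nhr-86 and nhr-31, and among the 14 were daf-12, nhr-48, nhr-23, nhr-41, nhr-119, nhr-254 and nhr-265.

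Some markers of tissues were low on the same arrays and some high. The myosin gene myo-3 read 9.45, 7.73 and 8.34 with LNA, beside 9.40, 9.35 and 8.94 in control. The summed signal of 4 body wall muscle markers lay between 12.43 and 13.82 in LNA and between 13.62 and 13.80 in control, and 3 of the 4 had an unadjusted p under 0.05 below control. The summed pharynx signal lay between 9.86 and 11.15 in LNA and between 10.90 and 11.07 in control. Of its 3 markers myo-1 and myo-2 were lower at that p, and tnt-4 was higher, by 0.24. The summed signal of 7 intestine markers stayed between 12.40 and 12.59 on all 12 arrays, yet 2 of the 7 were higher with LNA at an unadjusted p under 0.05, elt-2 (0.27) and ges-1 (0.25), with elt-2 at 7.44 and 7.36 on LNA 2 and LNA 3 and at most 7.13 in control. Of 5 sperm markers 1 was lower, fer-1, at 6.24 and 6.54 on LNA 2 and LNA 3 beside 7.20 on LNA 1. Of 5 markers each of neurons, hypodermis and germline 0 had an unadjusted p under 0.05 with LNA. No listed marker passed or was dim, and the part of the markers in the receptor values was not tested. Across the 266 receptors the difference from control had a Spearman rho with the genomic span of the gene of 0.02 on LNA 2 and -0.04 on LNA 3, given as a description of receptors that share an array. The 14 receptors lowest on both arrays had a median span of 4708 bases and the 18 highest one of 2616, beside 2190 for all 266, and the part of span was not tested.

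The other receptors that led the LNA comparison were nhr-133 (0.46, limma adjusted p = 0.384), nhr-38 (0.34), nhr-230 (0.31), nhr-214 (0.34) and nhr-22 (0.40) above control, and nhr-265 (-0.42), nhr-254 (-0.36), nhr-120 (-0.22), nhr-23 (-0.27) and nhr-262 (-0.24) below. Of these nhr-38, nhr-214 and nhr-265 were dim. The signal of nhr-265 was 2.93 on LNA 1 and 2.57 on both LNA 2 and LNA 3, beside 3.08, 3.28 and 2.99 in control. When LNA 1 was left out, so that LNA rested on the 2 arrays that lie apart, 3 receptors passed with LNA, namely nhr-88, nhr-119 and nhr-265. In that fit 3.05% of all probe sets passed, a larger share than 3 of 266.

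**Figure D3:**
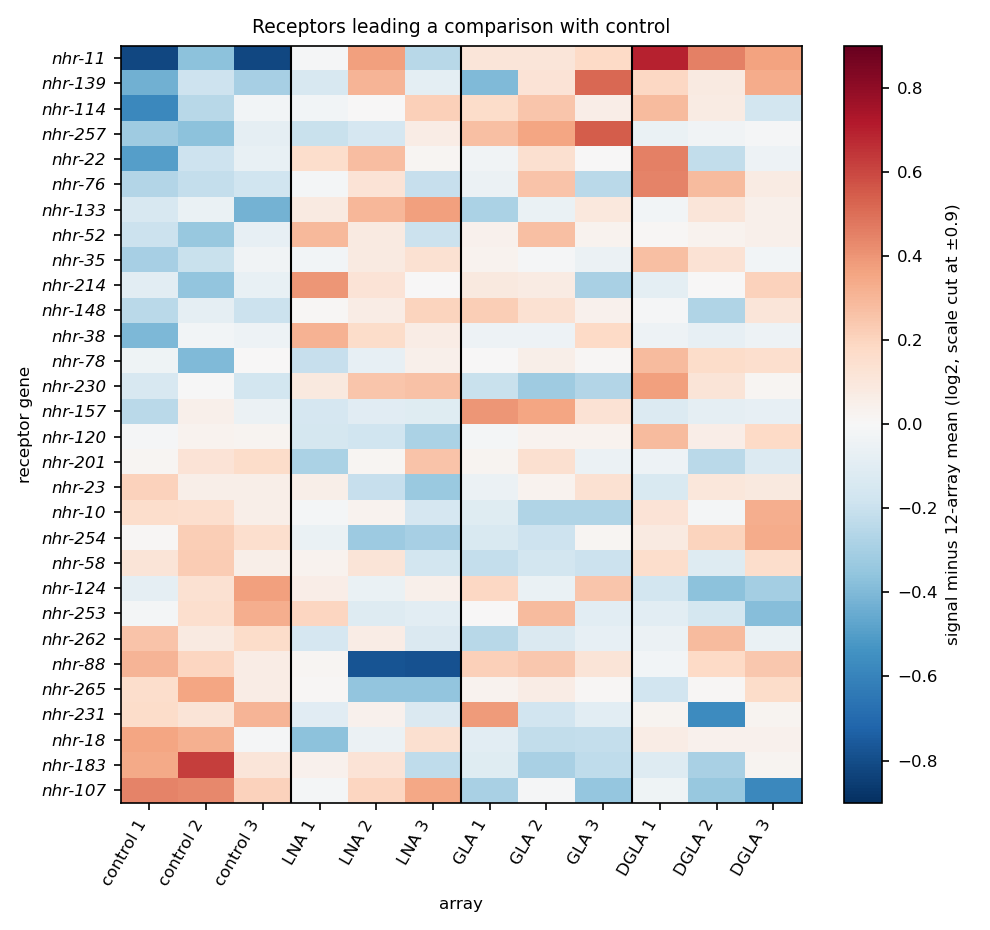
Signal of each of 12 arrays minus the gene's 12-array mean (log2, colour) for the 30 receptors that lead a comparison with control, ordered by the difference between the 9 fatty acid arrays and the 3 control arrays. The top row, nhr-11, is low on all 3 control arrays, and the row of nhr-88 is low on LNA 2 and LNA 3.

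The sterol hormone receptors were measured at clear signals and did not pass with any acid. DAF-12 is the receptor of the dafachronic acids, bile acid-like sterols that set reproductive growth against dauer arrest. Its gene read 8.13, 8.10 and 8.23 in control, 8.31, 7.60 and 7.97 with LNA, 8.22, 8.28 and 8.33 with GLA, and 8.12, 8.29 and 8.21 with DGLA. The groups overlapped apart from the 2 low LNA arrays, and the log2 differences were -0.20 (95% interval -0.51 to 0.12), 0.12 (-0.19 to 0.44) and 0.05 (-0.26 to 0.37). Its close relative nhr-8, which acts in resistance to toxins and in cholesterol balance, differed by 0.08, -0.06 and 0.07, and nhr-48 by -0.07, 0.18 and 0.20.

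Receptors with counterparts in insects and vertebrates lay near control as well. Of 6 such genes 0 passed with any acid in limma's test, and 1 had an unadjusted p under 0.05, nhr-23 with LNA (-0.27, adjusted p = 0.509). NHR-23, related to the ROR receptors, drives molting, and its gene read 8.93, 8.78 and 8.78 in control and 8.78, 8.52 and 8.39 with LNA, with LNA 1 equal to the lowest control arrays at 2 decimals. With GLA and DGLA its differences were -0.06 and -0.08. The E75 and Rev-erb relative nhr-85 differed by -0.08, 0.10 and 0.00 with LNA, GLA and DGLA. The NR4A relative nhr-6, which acts in the spermatheca, differed by -0.10, -0.07 and -0.04. The Tailless relative nhr-67 differed by -0.12, -0.12 and 0.02, the TR2 and TR4 relative nhr-41 by -0.20, 0.00 and 0.06, and the GCNF relative nhr-91 by 0.17, 0.23 and 0.03.

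Receptors that govern the use of nutrients spanned -0.34 to 0.49 with GLA and DGLA, and 0 of 7 passed in limma's test. The listed gene nhr-62 is not among the 7, since its probe set was left out. NHR-114, which protects the germline on diets poor in vitamin B12 and tryptophan, had a gene signal of 8.99, 9.32 and 9.54 in control, 9.54, 9.57 and 9.78 with LNA, 9.73, 9.82 and 9.63 with GLA, and 9.85, 9.64 and 9.40 with DGLA. Only the GLA arrays lay wholly above control, and control 1 was the lowest of the 12. The differences were 0.34 (adjusted p = 0.51), 0.44 (adjusted p = 0.768) and 0.35 (adjusted p = 0.832), each with an unadjusted p under 0.05.

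NHR-76 takes part in fat loss driven by serotonin, and its gene was higher on all 3 DGLA arrays. It read 6.41, 6.46 and 6.50 in control and 7.12, 6.96 and 6.75 with DGLA, a difference of 0.49 (95% interval 0.18 to 0.80, limma adjusted p = 0.363). With LNA and GLA the differences were 0.19 and 0.20.

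NHR-10 and NHR-68 together switch on the propionate shunt, the side route that breaks down propionate when vitamin B12 is scarce. The signal of nhr-10 was 6.85, 6.84 and 6.74 in control and 6.58, 6.42 and 6.42 with GLA, and those 2 groups did not overlap. The differences of nhr-10 were -0.17, -0.34 (limma adjusted p = 0.623) and 0.02 with LNA, GLA and DGLA, and those of nhr-68 were 0.15, -0.09 and -0.16. The remaining 3 of this group differed with LNA, GLA and DGLA as follows, with nhr-69 at 0.20, -0.08 and 0.07, nhr-31, which supports the vacuolar ATPase of the excretory cell, at 0.16, 0.09 and 0.11, and nhr-14, which acts in iron uptake, at -0.17, -0.07 and 0.01.

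Receptors of detoxification and stress lay near control. Of 4 genes 0 passed in limma's test and 0 had an unadjusted p under 0.05 with any acid. NHR-86 senses a toxin of Pseudomonas aeruginosa and switches on defence genes in the gut, and its gene read 7.57, 7.49 and 7.65 in control and between 7.47 and 7.74 on the other 9 arrays. The 95% interval of nhr-86 that reached furthest from 0 was -0.10 to 0.29, with LNA. The differences of nhr-176, which takes part in breaking down thiabendazole, were 0.05, -0.02 and 0.13. Those of nhr-57, a gene switched on by the hypoxia factor HIF-1, were 0.02, 0.07 and -0.15, and those of nhr-45 were 0.06, 0.01 and 0.04.

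Of 3 receptors of embryonic development 0 passed in limma's test. The gene nhr-2, needed early in the embryo, differed by -0.05, -0.01 and 0.15 with LNA, GLA and DGLA, nhr-40 by -0.15, 0.00 and 0.02, and nhr-60 by 0.12, -0.02 and 0.14. No receptor of the 5 role groups had an unadjusted p under 0.05 in these 3 comparisons other than nhr-23, nhr-114, nhr-76 and nhr-10.

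**Figure D4:**
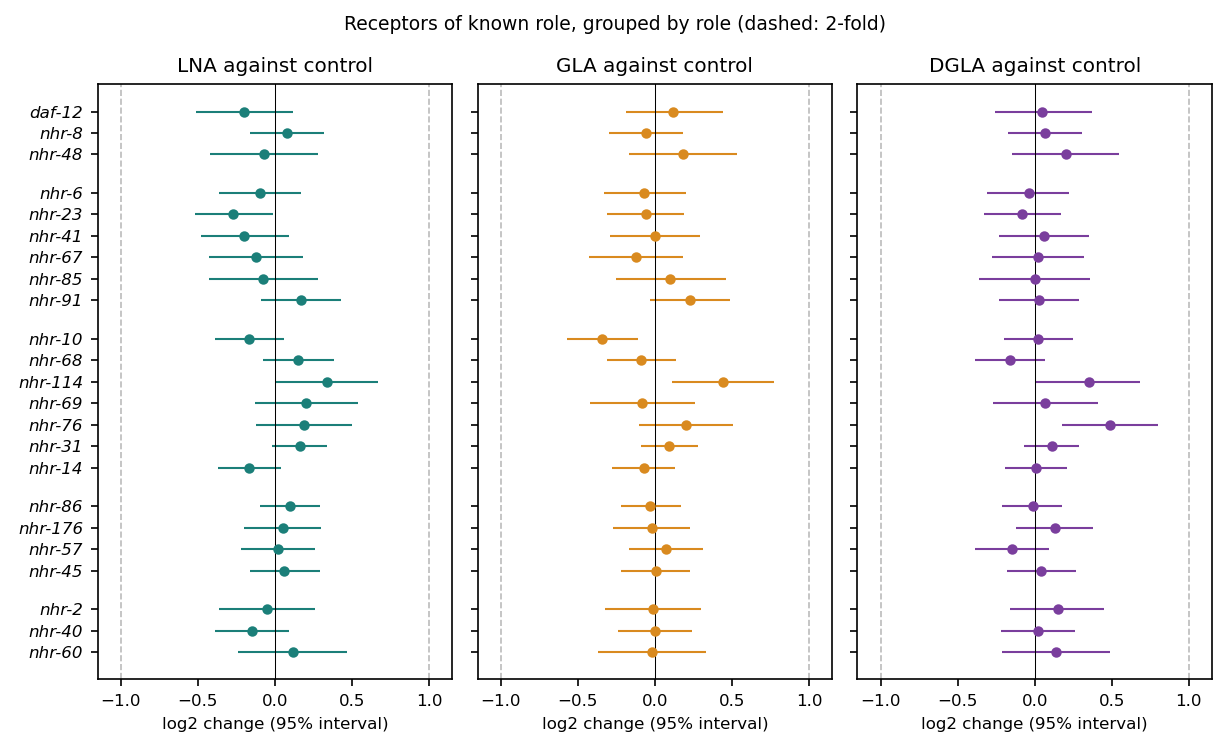
Log2 change against control (horizontal axis, point) with its 95% interval (line) for 23 receptors of known role, in blocks from top to bottom of sterol hormone, conserved, nutrient, detoxification and developmental receptors. Every interval lies between the dashed lines at 2-fold, and nhr-76 with DGLA is the highest point at 0.49.

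Few genes listed for a link to these receptors or their pathways passed. The list held nuclear receptors with other names, genes around DAF-12, coactivators and receptor-linked effectors. It also held genes of propionate breakdown, the methionine cycle, the hypoxia response, iron and the molting cycle. Of its 47 measured genes, 0 rose and 0 fell with LNA, 1 fell with GLA and 2 fell with DGLA. The median log2 changes of the 47 were 0.03, 0.08 and 0.04. The calls are 2.13% of the list with GLA and 4.26% with DGLA, above the 0.229% and 0.498% of all probe sets, a difference that was not tested. They were irg-4 with GLA, and irg-4 and cysl-2 with DGLA. The list was set down with earlier results of these data known, so these shares describe the list alone. At an unadjusted p under 0.05, 3 were higher and 8 lower with LNA (6.38% and 17.0%, beside 5.17% and 4.17% of all genes). With GLA 1 was higher and 2 lower (2.13% and 4.26%, beside 2.71% and 2.76%). With DGLA 0 were higher and 4 lower (0% and 8.51%, beside 2.98% and 2.70%), and these differences were not tested. The lowest with LNA was mlt-11, a molting gene, at -1.01 (limma adjusted p = 0.607), and its LNA 2 and LNA 3 arrays read 6.97 and 7.68 beside 9.53 on LNA 1, while its control arrays spread from 7.89 to 10.01. Among the 11 molting genes measured, 0 were higher and 2 lower with LNA at an unadjusted p under 0.05. For GLA against LNA 7 were higher and 0 lower at that p (63.6% higher, beside 5.18% of all genes), and 0 passed. These shares were not tested. Of 9 genes of propionate breakdown 0 passed with any acid in limma's test, and 0 had an unadjusted p under 0.05. The first gene of the shunt, the acyl-CoA dehydrogenase acdh-1, read 11.91, 11.99 and 11.99 in control and between 11.81 and 12.10 on the other 9 arrays. Of 8 genes around DAF-12 0 passed with any acid. At an unadjusted p under 0.05, 1 was higher and 3 lower with LNA (12.5% and 37.5%, beside 5.17% and 4.17% of all genes). With GLA and with DGLA 0 were higher and 1 lower (12.5% lower in each, beside 2.76% and 2.70% of all genes).

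The gene of this group nearest to a call was ncr-1, which encodes a relative of the cholesterol transporter NPC1. It read 7.95, 7.95 and 7.90 in control, 7.84, 7.65 and 7.65 with LNA, 7.73, 7.61 and 7.74 with GLA, and 7.37, 7.54 and 7.56 with DGLA. All 9 fatty acid arrays lay below control, and the differences were -0.22, -0.24 and -0.44 (limma adjusted p = 0.5, 0.848 and 0.0712). The DAF-12 corepressor gene din-1 was lowest on LNA 2 and LNA 3, at 7.07 and 7.32 beside 8.49 on LNA 1. Both coactivator genes were low on the same arrays. The Mediator subunit gene mdt-15 read 9.07 and 9.36 there beside 10.03 on LNA 1, and cbp-1, of a histone acetyltransferase, read 8.65 and 8.93 beside 10.05. The differences with LNA were -0.29 for mdt-15 and -0.65 for cbp-1 (adjusted p = 0.636 and 0.507), and with GLA and DGLA they were 0.13 and 0.15 for mdt-15 and 0.10 and 0.10 for cbp-1.

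The pathway genes that passed had been listed for a link to a receptor or to its pathway. Control of these genes by the receptors was not tested. The infection response gene irg-4, which NHR-86 helps to switch on, read 8.25, 8.33 and 8.34 in control, 7.56, 7.31 and 7.08 with GLA, and 7.79, 7.45 and 7.53 with DGLA. With LNA it read 7.60, 7.52 and 7.73 and did not pass (-0.69, adjusted p = 0.14), though all 9 fatty acid arrays lay below control. It fell with GLA (-0.99, limma adjusted p = 0.00831) and with DGLA (-0.72, adjusted p = 0.0337), while nhr-86 itself differed by -0.03 and -0.01. The call with DGLA ended on the 6 arrays alone and in 7 of 12 fits with 1 array left out, with an adjusted p of up to 0.168, and without LNA 2 and LNA 3 (0.0774). The other infection response gene listed, irg-6, differed by -0.21, 0.18 and -0.07 with LNA, GLA and DGLA and did not pass. Its mean signal was 3.17, near the dim limit of 2.96, so small changes say little about its transcript. The irg-4 call with GLA ended on the 6 arrays alone (adjusted p = 0.0772) and without GLA 2 (0.0556).

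The cysteine synthase-like gene cysl-2, a target of HIF-1 as nhr-57 is, read 6.95, 6.98 and 6.82 in control, 7.10, 7.41 and 7.37 with LNA, 6.87, 6.95 and 6.88 with GLA, and 6.31, 6.22 and 6.21 with DGLA. The DGLA arrays lay below all others. It fell with DGLA against control (-0.67, limma adjusted p = 0.00865) and was lower with DGLA than with LNA (-1.05, adjusted p = 0.000584) and than with GLA (-0.65, adjusted p = 0.0403). The first of these calls ended on the 6 arrays alone (0.0536) and without control 1, control 2, DGLA 2 or DGLA 3 (adjusted p up to 0.0546), and the last held in 1 of 12 fits with 1 array left out, without LNA 1. The difference of nhr-57 with DGLA was -0.15 (95% interval -0.39 to 0.09).

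The cytochrome P450 gene cyp-35D1, which nhr-176 controls, was lower with DGLA than with LNA (-1.43, limma adjusted p = 0.00307). Its signal was 4.50, 4.80 and 5.31 in control, 5.41, 5.63 and 5.54 with LNA, 5.02, 4.74 and 4.80 with GLA, and 4.09, 4.11 and 4.10 with DGLA. The DGLA arrays were the lowest and the LNA arrays the highest of the 12, and against control it did not pass with LNA (adjusted p = 0.343) or DGLA (adjusted p = 0.0973). Without LNA 2 and LNA 3 the difference from LNA was -1.31 and the call ended (adjusted p = 0.165). The nhr-176 signal was between 4.90 and 5.35 on all 12 arrays.

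Comparisons between acids asked whether the desaturation from LNA to GLA or the elongation from GLA to DGLA moved any receptor. Desaturation adds a double bond to the chain and elongation makes it longer, and every acid was given at the same dose of 1000 µM. Over the 3 pairs compared 0 receptors passed in limma's test, which adjusts within each pair over all probe sets, where 0.0614% of all probe sets passed for GLA against LNA, 0.075% for DGLA against GLA and 0.317% for DGLA against LNA. At an unadjusted p under 0.05, GLA against LNA had 7 receptors higher and 13 lower, beside 5.18% and 5.78% of all genes. DGLA against GLA had 9 and 5, beside 2.45% and 2.59%, and DGLA against LNA had 12 and 9, beside 5.31% and 5.90%. The 95% interval lay inside a 2-fold change for 263, 263 and 264 of the 266 receptors in these pairs, which leaves room for smaller differences. These are 98.9%, 98.9% and 99.2%, beside 97.2%, 98.6% and 97.1% of all genes.

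The receptor nhr-230 had the smallest adjusted p for the elongation step. It read 5.04, 4.92 and 4.98 with GLA and 5.61, 5.36 and 5.26 with DGLA, beside 5.33, 5.49 and 5.51 with LNA and 5.10, 5.24 and 5.08 in control. The GLA arrays were the lowest of the 12. The difference was 0.43 for DGLA against GLA (limma adjusted p = 0.508) and -0.46 for GLA against LNA (adjusted p = 0.294).

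Next for the elongation step, beside nhr-257, came nhr-157 (-0.39), nhr-10 (0.36), nhr-124 (-0.40) and nhr-106 (0.69), the last of which spread from 4.20 to 5.33 among the GLA arrays. Also ranked were nhr-254 (0.31), nhr-58 (0.26), nhr-150 (-0.30), nhr-235 (-0.28) and nhr-267 (-0.48). For the desaturation step nhr-88 (0.71), nhr-157 (0.42), nhr-272 (0.48), nhr-44 (-0.41), nhr-47 (-0.33), nhr-237 (-0.29), nhr-17 (-0.27), nhr-68 (-0.24), nhr-120 (0.22) and nhr-172 (0.20) led with nhr-257 and nhr-230. Of these leaders, nhr-88 and nhr-120 were lower on both LNA 2 and LNA 3 than on the other 10 arrays. On the same arrays nhr-47, nhr-17 and nhr-68 were higher than on the other 10. The difference of nhr-88 was at least 0.57 with 1 array left out, but fell to 0.18 among all refits. The other leaders of this step were not placed in that way. For DGLA against LNA the smallest adjusted p was that of nhr-120 (0.38, limma adjusted p = 0.117), followed by nhr-254 (0.43, adjusted p = 0.21). The signal of nhr-120 was 5.44, 5.42 and 5.31 with LNA and 5.88, 5.66 and 5.78 with DGLA, and the LNA arrays were the lowest of the 12. The others ranked in that pair were nhr-123 (0.48), nhr-223 (0.37), nhr-142 (0.28) and nhr-78 (0.28) above, and nhr-107 (-0.49), nhr-94 (-0.46), nhr-17 (-0.33), nhr-177 (-0.32), nhr-68 (-0.31) and nhr-124 (-0.29) below. Both LNA 2 and LNA 3 lay below the other 10 arrays in nhr-120, nhr-254, nhr-123, nhr-223 and nhr-142. Both lay above them in nhr-94, nhr-17 and nhr-68. The differences of these receptors therefore rest in part on the arrays that stand apart. This placing was not found in nhr-78, nhr-107, nhr-177 or nhr-124.

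Without LNA 1, which leaves the 2 arrays that lie apart, 5 receptors passed for GLA against LNA and 6 for DGLA against LNA. The first were daf-12, nhr-88, nhr-94, nhr-119 and nhr-230, and the second were nhr-41, nhr-88, nhr-94, nhr-119, nhr-120 and nhr-254. In those fits 3.28% and 4.64% of all probe sets passed, larger shares than 5 and 6 of 266. Without LNA 2 and LNA 3 instead, 1 passed for GLA against LNA, nhr-220, and 0 for DGLA against LNA, beside 0.0409% and 0.106% of all probe sets.

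Many of these genes sit side by side in the genome, as the reference gene table orders them. Of the 266, 131 lay in 43 runs of directly adjacent receptor genes, the longest with 8. Of the 28 runs of 2 genes, both members lay on the same side of 0 in 14 with LNA, 17 with GLA and 13 with DGLA. Of the 15 longer runs all members lay on 1 side in 0 with LNA, 3 with GLA, all of them below, and 1 with DGLA, above. The largest of these was nhr-123, nhr-98, nhr-203, nhr-202 and nhr-201, at -0.34 to -0.04 with GLA. In a run of 7 that holds nhr-107 (-0.68 with DGLA), its neighbours nhr-162 and nhr-42 differed by -0.01 and -0.07, while nhr-139 in the same run differed by 0.51. In the run of 8, changes with GLA ranged from -0.32 to 0.38, the highest being nhr-157, and with DGLA from -0.42, in nhr-124, to 0.03. The only adjacent receptor of nhr-257, nhr-72, differed by -0.01 with GLA, where nhr-257 rose by 0.65, and nhr-72 was dim too.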

How the data were processed

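The deposited table holds log2 signals that the authors made with RMA, per the submitters' processing notes. Those notes also list the Transcriptome Analysis Console and Affymetrix Expression Console, and their versions are not given here. Raw intensities were not used here. Array medians lay between 4.47 and 4.56. Precision is limited by having 3 arrays in a group, and the median SE of a log2 change was 0.136.

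Gene names came from the platform annotation and the reference gene table of WBcel235, which matched all 266 members by gene identifier. The files name no build, so no coordinates are given, and sequences were not used here. Probe sets that list several gene entries were not named.

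Group means were fitted to all 29317 probe sets and all 12 arrays with limma 3.58.1 (lmFit, eBayes) in R 4.3.3, without a block or a filter on dim probe sets, and p-values were adjusted by Benjamini-Hochberg within each comparison. The fit was tested on simulated data. Intervals are at 95% with 11.6 degrees of freedom.

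The members, role lists and tests were chosen with earlier results of these data known, and the pathway and marker lists were set down with them. The receptors named are those called, the 6 highest and 6 lowest moderated statistics per comparison among receptors whose groups do not overlap, and the role lists. Receptors named outside that rule (nhr-119, nhr-220, nhr-42, nhr-162 and nhr-72 in the passages on left-out arrays and neighbours) were chosen after their values were seen. So were the genes named from the pathway and marker lists that were not called, the runs named and the most variable receptors nhr-270, nhr-129 and nhr-75. The same holds for daf-12, nhr-94 and nhr-41 where left-out fits name them for a pair of acids that the rule does not cover. Alternatives were a dim filter, cyclic loess, an intensity trend, array weights, only the arrays compared, a replicate block, leaving out arrays, and averaging probe sets.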

Additional observations from a re-analysis of the deposited data

How the results depend on the processing

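The GLA count of 1 receptor was 0 without dim probe sets, on the arrays compared alone and without LNA 2 and LNA 3, and 0 to 1 with 1 array left out. The DGLA count of 1 was 2 with array weights (nhr-11 and nhr-107) and 0 on the arrays compared alone. The LNA count of 0 was 0 to 3 with 1 array left out. GLA against LNA went from 0 to 1 without LNA 2 and LNA 3, and to 0 to 5 with 1 array left out, and DGLA against LNA from 0 to 1 (nhr-88) with array weights and to 0 to 6. The F test count of 1 was 3 with array weights, 2 without LNA 2 and LNA 3 (nhr-11 and nhr-220) and 0 to 4 with 1 array left out. Causes were not tested. The median change of the receptors moved to -0.017 for LNA without LNA 2 and LNA 3, where LNA rests on 1 array assumed to vary like the others, and without dim probe sets to -0.037 for GLA, -0.053 for GLA against LNA and 0.053 for DGLA against GLA. With the replicate block the counts stayed at 1 for GLA and 1 for DGLA, while irg-4 with DGLA (adjusted p = 0.0635) and cysl-2 for DGLA against GLA (0.121) no longer passed. The numbers share no stated batch, and deviations of same-numbered arrays correlated between -0.133 and 0.216, over 0.1 in 3 of 18 pairs. Between control and LNA each of 6 arrays correlated best with its own number. Between control and GLA and between LNA and GLA 4 of 6 did. Of the 6 arrays in each pair of groups with DGLA 0 did. These counts come from the data alone. Averaging probe sets changed no member, since each had 1. The count of receptors whose groups do not overlap was rechecked under cyclic loess and without dim probe sets, choices made after seeing the data, and its counts stayed within 1.5 times. Among 83 results of leading or called genes the sign changed in 1 of 1642 refits, nhr-11 for GLA against LNA without LNA 3, where it was not called. The leading results were picked among groups that do not overlap, so leaving out arrays could not change their sign. Their count is therefore no measure of stability. Among 65 results of role genes, picked without that condition, the sign changed in 68 of 1300, none of them called.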

Other observations

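The receptors varied between replicates about as much as other genes. Their median SD within a group was 0.177, beside 0.166 over all genes, and was 0.173 for the dim ones. The most variable member was nhr-270 (SD 0.43), which read 3.55, 3.18 and 4.39 in control and 3.30, 3.90 and 3.04 with GLA, and nhr-129 and nhr-75 followed at 0.38. By array, LNA 2 held the most receptors further than 0.5 from their 12-array mean, 13 of 266, where the other arrays held 2 to 10, and DGLA 1 was the highest array for 37 receptors, where the others were highest for 16 to 32.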
